A study of Mus musculus with 15 samples.

Results

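The genes described here make and load MHC class I, the surface molecules that show peptides from inside a cell to the immune system. They are B2m, H2-K1, H2-D1, H2-T23, Psmb8, Psmb9, Tap1, Tap2, Tapbp and Nlrc5, and every probe set of the Affymetrix mouse genome array annotated to 1 of these 10 genes was taken. This gave 31 of the 45101 probe sets on the array. Of the 31, 26 were annotated to 1 gene and 5 to several genes, and H2-T23 had no probe set of its own. A further split followed the probe set name: 14 ended in _x_at, 4 in _a_at, 0 in _s_at and 13 in _at alone. An _x_at probe set holds probes that also match other transcripts, so its value can include RNA of other class I genes, and it is named as such throughout.

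Expression was measured in 5 mouse embryonic stem (ES) cell lines with 3 arrays each, and the values are log2 expression values. NmB6D2 was derived after natural mating of female C57BL6 with male DBA2 mice. R1 is a purchased line from a cross between the 129S1/SvImJ and 129X1/SvJ substrains, also of fertilised origin. The other 3 lines are parthenogenetic, which means that the oocyte was activated without sperm and both chromosome sets come from the mother. OpB6D2 came from naturally ovulated oocytes of B6D2F1 females, whose mothers were C57BL6 and whose fathers were DBA2. FpB6D2 came from oocytes that had grown in cultured preantral follicles of prepubertal B6D2F1 females. FpB6CBA came from such oocytes of B6CBAF1 females, whose mothers were C57BL6 and whose fathers were CBA/ca. No line is labelled as treated. Each line is a single derivation, and nothing in the labels says that its 3 arrays came from separate cultures, so every p-value below measures only the spread between arrays. These are bulk samples, in which fewer cells of a type and less RNA per cell cannot be told apart.

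In the class I pathway the proteasome cuts proteins into peptides, and the immunoproteasome subunits Psmb8 and Psmb9 replace constitutive subunits and change which peptides are made. The transporter formed by Tap1 and Tap2 carries peptides into the endoplasmic reticulum, where tapasin, the product of Tapbp, holds the transporter next to empty class I molecules. A class I molecule joins a heavy chain, such as H2-K1, H2-D1 or the non-classical H2-T23, to the light chain beta-2-microglobulin, the product of B2m. Nlrc5 is a transcriptional activator of these genes, and interferons raise their transcription in many cells. ES cells are known for low class I levels at the cell surface. The heavy chain genes differ between mouse strains more than most genes, and C57BL6, DBA2 and CBA mice carry different H2 haplotypes, named b, d and k. How well the probes match the alleles of each line was not tested. A difference between lines on a heavy chain probe set may therefore not be one of RNA level.

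The 10 genes lie on 3 chromosomes, 8 on chromosome 17, B2m on chromosome 2 and Nlrc5 on chromosome 8. Psmb9, Tap1, Psmb8 and Tap2 follow each other directly among the protein-coding genes of chromosome 17. The table of RefSeq promoters (build GRCm38.p6) held 8 of the 10 genes, all but Tap2 and Nlrc5, and the 250 bases before each start were searched on both strands for 8 motifs. Below are 5 of these windows, chosen because the largest or most contrasting differences among the 5 lines were in these genes. Each is written 5' to 3' on the strand of the gene, with every motif match in capitals.

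B2m (chr2:122147437-122147686, plus strand): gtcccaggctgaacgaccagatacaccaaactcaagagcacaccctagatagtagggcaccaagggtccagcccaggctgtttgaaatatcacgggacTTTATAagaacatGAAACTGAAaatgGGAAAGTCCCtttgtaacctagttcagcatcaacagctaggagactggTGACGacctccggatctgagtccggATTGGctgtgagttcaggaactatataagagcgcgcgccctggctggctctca

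H2-K1 (chr17:34000334-34000583, minus strand): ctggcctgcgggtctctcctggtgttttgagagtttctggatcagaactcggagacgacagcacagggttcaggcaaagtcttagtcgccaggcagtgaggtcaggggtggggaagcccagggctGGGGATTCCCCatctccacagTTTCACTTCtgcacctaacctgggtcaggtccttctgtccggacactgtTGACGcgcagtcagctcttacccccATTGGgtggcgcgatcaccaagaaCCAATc

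H2-D1 (chr17:35262844-35263093, plus strand): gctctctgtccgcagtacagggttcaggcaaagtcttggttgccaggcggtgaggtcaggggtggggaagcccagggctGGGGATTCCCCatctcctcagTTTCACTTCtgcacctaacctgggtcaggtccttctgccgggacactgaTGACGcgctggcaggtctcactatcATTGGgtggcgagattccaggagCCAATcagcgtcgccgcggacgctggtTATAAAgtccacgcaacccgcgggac

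Tap1 (chr17:34187306-34187555, plus strand): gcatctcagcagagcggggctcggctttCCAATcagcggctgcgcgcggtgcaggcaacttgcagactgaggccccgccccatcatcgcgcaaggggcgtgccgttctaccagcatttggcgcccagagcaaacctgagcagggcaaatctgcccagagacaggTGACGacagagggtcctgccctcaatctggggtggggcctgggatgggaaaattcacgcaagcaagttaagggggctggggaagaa

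Psmb8 (chr17:34197945-34198194, plus strand): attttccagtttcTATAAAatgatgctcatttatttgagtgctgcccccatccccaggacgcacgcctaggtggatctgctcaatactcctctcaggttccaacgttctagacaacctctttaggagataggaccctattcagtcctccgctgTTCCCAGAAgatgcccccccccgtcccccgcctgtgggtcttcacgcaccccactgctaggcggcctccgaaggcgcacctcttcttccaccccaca

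The windows of H2-K1 and H2-D1 share a run of 47 identical bases, which holds their NF-kB site, and both also hold the 9-letter match TTTCACTTC. The windows of Tap1 and Psmb9 share 225 bases, because these genes start 226 bases apart and are read in opposite directions. The core of the interferon-stimulated response element, searched as GAAANNGAA, was found in B2m and H2-T23 and in 7.13% of all 32851 promoter windows. With the other spacing, GAANNGAAA, it was found in H2-K1 and H2-D1 and in 6.31% of all windows, and this motif was added after the sequences had been seen. The gamma-activated site, TTCNNNGAA, was found in Psmb8 alone among the 8 genes and in 7.02% of all windows. B2m, H2-K1 and H2-D1 each held an NF-kB site, found in 7.25% of all windows. The X2 site TGACG was found in 5 of the genes, B2m, H2-K1, H2-D1, Tap1 and Psmb9, and in 17.8% of all windows. The Y box CCAAT was found in 7, all but Psmb8, and in 33.8% of all windows. TATAAA was found in B2m, H2-D1 and Psmb8 and in 12.4% of all windows, and the full cyclic AMP response element TGACGTCA in 0 of the 8 genes and in 1.55% of all windows. A match describes these letters of the reference genome only, not binding and not the alleles of the other strains.

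Of the 31 probe sets, 22 were tested, since 3 or more of their arrays reached 3.86, the median over all probe sets and arrays. The other 9 lay between 2.44 and 4.16, with no array at that level for 7 of them and 1 or 2 arrays for the other 2. A call needed both an adjusted p below 0.05 and a change of 2-fold or more, that is 1 log2 unit, in a limma fit over all 24524 probe sets that passed the same filter. Where a line lay below 3.86, a fold is a lower bound against that level. Across the 15 arrays, values correlated at 0.992 to 0.998 within a line and at 0.917 to 0.978 between lines, over probe sets that are not independent replicates. The median over the tested probe sets lay between 6.06 and 6.24. The bacterial hybridisation controls, which are added to the hybridisation mix, averaged 9.93 in FpB6CBA and 9.74 in FpB6D2 against 9.23 to 9.34 in the other 3 lines. The 11 ES cell markers were all tested, and their mean lay between 10.55 and 10.96 in each line.

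Beta-2-microglobulin RNA was highest in R1, next highest in FpB6CBA, and lowest in FpB6D2 and NmB6D2. On its 3 arrays per line, B2m (1449289_a_at) read 10.02, 10.02 and 10.12 in R1, 9.70, 9.72 and 9.80 in FpB6CBA, 9.17, 9.22 and 9.22 in OpB6D2, 8.82, 8.94 and 9.03 in NmB6D2, and 8.79, 8.81 and 8.90 in FpB6D2. The arrays of R1, FpB6CBA and OpB6D2 formed separate ranges, and those of NmB6D2 and FpB6D2 overlapped. B2m was 2.17-fold higher in R1 than in NmB6D2 (difference 1.12, SE 0.06, adjusted p = 2.7e-09). It was 1.88-fold higher in FpB6CBA than in FpB6D2 (difference 0.91, SE 0.06, adjusted p = 2.97e-08), under the fold minimum. NmB6D2 and FpB6D2 differed by 0.10 (adjusted p = 0.218), and each other pair of neighbours in the order differed at an adjusted p of 0.00297 or less. The second probe set, 1452428_a_at, gave 2.31-fold for R1 over NmB6D2 (adjusted p = 2.29e-09) and the same 3 lines on top.

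**Figure D1:**
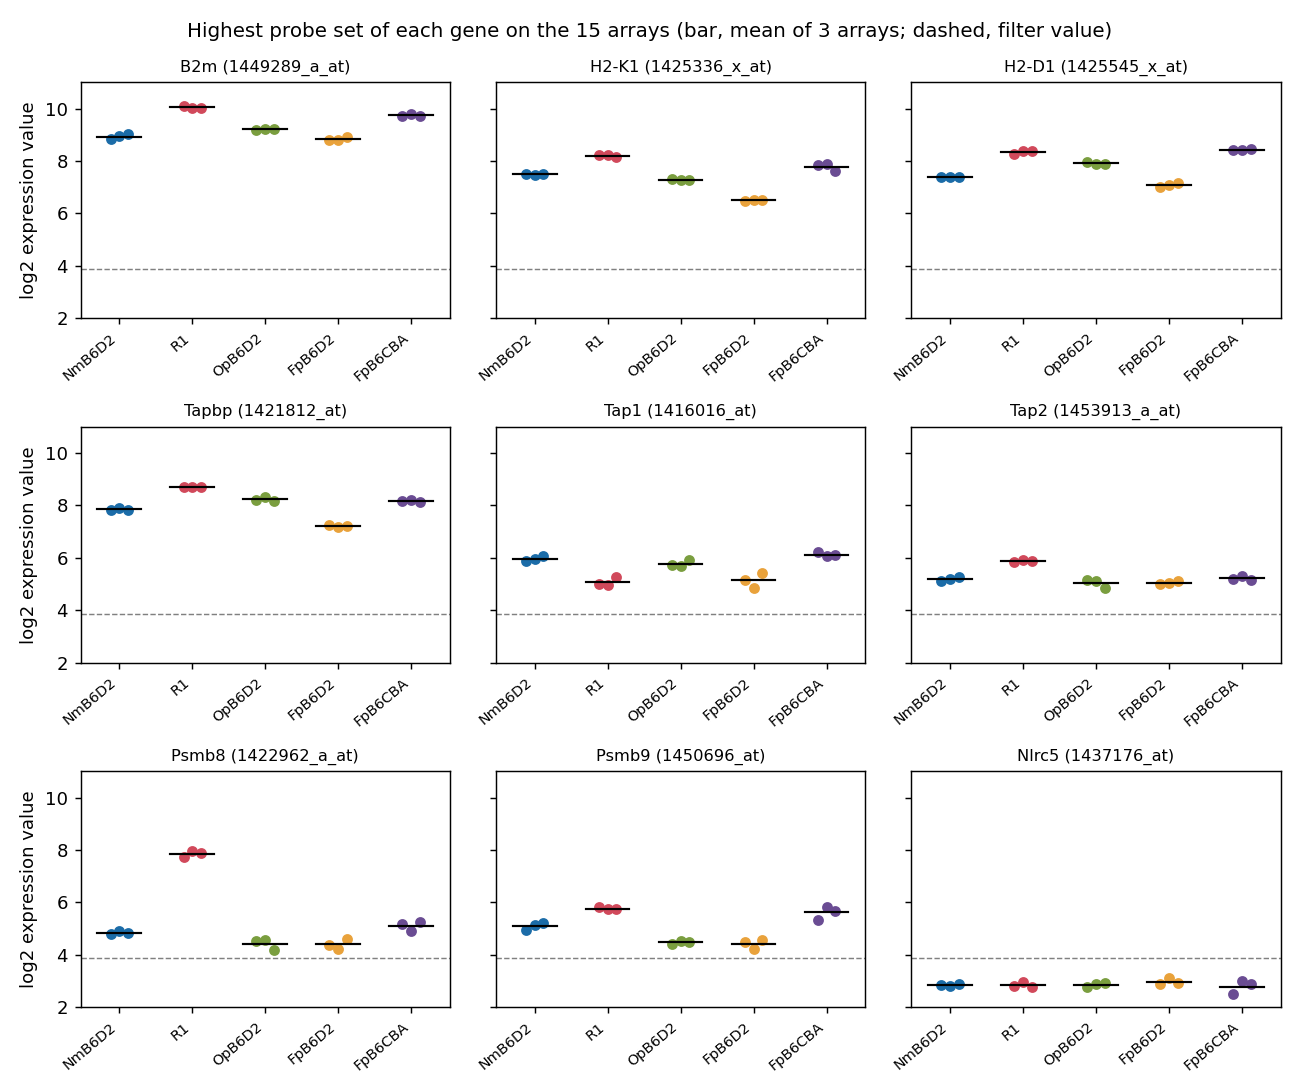
Log2 expression values on the 15 arrays for the probe set with the highest mean of each of the 9 genes that have their own, by line (points, arrays; bars, means of 3 arrays; dashed line, the filter value of 3.86). Psmb8 stood at 7.73 to 7.95 on the R1 arrays and under 5.3 on the other 12, Tap1 was lowest in R1 and FpB6D2, and Nlrc5 stayed under the filter value on every array.

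H2-K1, a classical heavy chain, ranked FpB6D2 lowest on its 3 tested probe sets, all of them _x_at. Probe set 1425336_x_at read 8.13, 8.21 and 8.23 in R1, 7.61, 7.85 and 7.89 in FpB6CBA, 7.48, 7.50 and 7.52 in NmB6D2, 7.26, 7.28 and 7.32 in OpB6D2, and 6.47, 6.50 and 6.52 in FpB6D2. No line overlapped another, and each neighbour in that order differed from the next (adjusted p from 8.37e-07 to 0.0219). The level in FpB6CBA was 2.44-fold that in FpB6D2 (difference 1.28, SE 0.07, adjusted p = 1.94e-09), and the level in FpB6D2 was 2.00-fold below that in NmB6D2 (difference -1.001, SE 0.07, adjusted p = 2.54e-08). The latter sat at the fold minimum, and without NmB6D2 replicate 3 or FpB6D2 replicate 1 the difference was -0.99, and under quantile normalisation -0.96, in each case no longer called.

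Probe set 1427746_x_at of H2-K1 put FpB6CBA above R1. It read 6.11, 6.27 and 6.35 in FpB6CBA, 5.74, 5.80 and 5.91 in R1, 5.26, 5.37 and 5.45 in NmB6D2, 4.90, 4.92 and 5.00 in OpB6D2, and 4.14, 4.18 and 4.51 in FpB6D2. The 5 lines again did not overlap. FpB6CBA was 3.9-fold above FpB6D2 (adjusted p = 8.29e-10), and FpB6D2 was 2.12-fold below NmB6D2 (difference -1.08, SE 0.10, adjusted p = 3.38e-07). The third, 1451931_x_at, had no called difference in the 5 comparisons and placed FpB6D2 (6.66 ± 0.08, SD, n = 3) beside NmB6D2 (6.74 ± 0.16), with a difference of -0.07 (adjusted p = 0.557). The probe sets of this gene thus differ on where FpB6D2 stands against NmB6D2. The remaining one, 1450534_x_at, was not tested, with line means of 3.38 to 3.87. The probe set annotated to both H2-K1 and H2-D1, 1424948_x_at, averaged 6.22 in FpB6CBA, 6.07 in R1, 5.32 in NmB6D2, 5.26 in OpB6D2 and 4.36 in FpB6D2, and was 3.62-fold higher in FpB6CBA than in FpB6D2 (adjusted p = 2.17e-09). The probe set annotated to H2-Q5 and H2-K1, 1451593_at, differed between no neighbouring lines, with adjusted p of 0.348 or more.

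H2-D1, the other classical heavy chain, was read by 9 probe sets of its own, of which 8 were tested, and these divided by line. Probe set 1425545_x_at read 8.41, 8.44 and 8.45 in FpB6CBA, 8.27, 8.37 and 8.38 in R1, 7.88, 7.88 and 7.98 in OpB6D2, 7.37, 7.40 and 7.40 in NmB6D2, and 6.99, 7.08 and 7.15 in FpB6D2. FpB6CBA and R1 did not differ beyond their spread (adjusted p = 0.173), and the other neighbours did. The level in FpB6CBA was 2.57-fold that in FpB6D2 (difference 1.36, SE 0.06, adjusted p = 1.98e-10). Probe set 1451784_x_at gave the same order and 2.51-fold (adjusted p = 2.89e-09), and 1451683_x_at, lower on the scale, placed R1 (4.51 ± 0.06) and FpB6CBA (4.48 ± 0.11) on top.

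In R1, 3 other probe sets of H2-D1 went the opposite way. Probe set 1452544_x_at read 6.41, 6.54 and 6.58 in FpB6CBA, 5.61, 5.71 and 5.86 in NmB6D2, 5.30, 5.44 and 5.60 in OpB6D2, 5.13, 5.37 and 5.44 in FpB6D2, and 4.57, 4.62 and 4.91 in R1. R1 lay below every other line there. It was 2.03-fold lower in R1 than in NmB6D2 (difference -1.02, SE 0.11, adjusted p = 1.85e-06), and it was no longer called without NmB6D2 replicate 4 (-0.96), R1 replicate 3 (-0.98) or R1 replicate 5 (-0.96). Against the same line, R1 was at least 1.54-fold lower on 1425614_x_at (difference -0.93, adjusted p = 3.4e-06) and at least 1.28-fold lower on 1427651_x_at (difference -0.61, adjusted p = 0.000465), both under the fold minimum. It was higher on 1425545_x_at (difference 0.95, adjusted p = 5.36e-09), 1451784_x_at (0.99, adjusted p = 4.51e-08) and 1451683_x_at (0.75, adjusted p = 4.38e-07), also under it. As a description, the 3 probe sets higher in R1 correlated with each other at 0.976 to 0.994 over the 15 arrays, the 3 lower ones at 0.867 to 0.931, and the 9 pairs between them at -0.132 to 0.188. The 2 groups were formed by their direction in R1 on these same arrays, so part of this contrast is built in. The probe sets share the gene name and the arrays, and which transcript or allele each reads was not tested.

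Another, 1450170_x_at, separated FpB6CBA from all other lines. It read 5.63, 5.76 and 6.06 in FpB6CBA, and between 2.80 and 3.21 on the other 12 arrays, all under the filter value. The level in FpB6CBA was at least 3.87-fold that in FpB6D2. The probe set passed the filter through the 3 FpB6CBA arrays alone and so had to differ there, and this fold is given as a description with no test. On 1426324_at, which is not an _x_at probe set, the 5 lines averaged 3.83 to 4.30 and no neighbouring pair differed (adjusted p of 0.128 or more). The remaining 1451934_at, with line means of 2.83 to 3.26, and 1422348_at, annotated to Gm38417, H2-Q2 and H2-D1, with 2.83 to 3.66, were not tested.

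**Figure D2:**
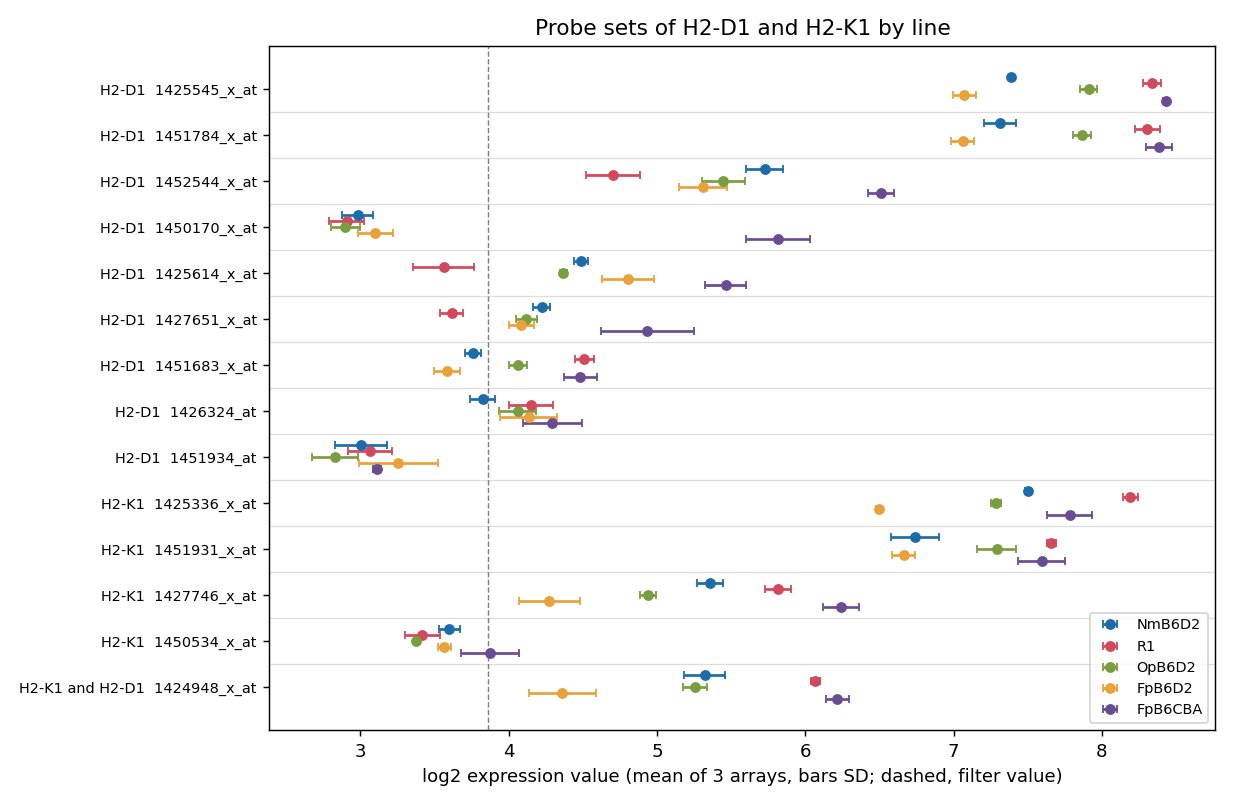
Log2 expression value of each probe set of H2-D1 and H2-K1 in the 5 lines (points, mean of 3 arrays; bars, SD; dashed line, the filter value of 3.86). R1 is near the top on 1425545_x_at and 1451784_x_at (8.34 and 8.31) and lowest on 1452544_x_at (4.70), and 1450170_x_at is above the filter value in FpB6CBA alone (5.82).

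H2-T23 encodes the non-classical chain Qa-1, a ligand of inhibitory receptors on natural killer cells, and both its probe sets are also annotated to H2-T-ps, so their values are not given to 1 gene. On 1449556_at the arrays read 4.70, 4.91 and 5.06 in FpB6CBA, 4.40, 4.45 and 4.46 in R1, 3.56, 4.01 and 4.12 in OpB6D2, 3.62, 3.93 and 3.96 in NmB6D2, and 3.31, 3.38 and 3.76 in FpB6D2. FpB6CBA and R1 stood apart and the other 3 lines overlapped. FpB6CBA was at least 2.04-fold above FpB6D2 (fitted difference 1.41, SE 0.15, adjusted p = 2.44e-06). The other probe set, 1419658_at, averaged 2.86 to 3.13 and was not tested.

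Of the immunoproteasome subunits, Psmb8 was highest in R1, by the largest difference of any tested probe set of these genes in the 5 comparisons. Psmb8 (1422962_a_at) read 7.73, 7.87 and 7.95 in R1, 4.91, 5.17 and 5.25 in FpB6CBA, 4.77, 4.82 and 4.92 in NmB6D2, 4.17, 4.52 and 4.57 in OpB6D2, and 4.21, 4.36 and 4.61 in FpB6D2. R1 lay far above the other 4 lines, FpB6CBA and NmB6D2 overlapped, and so did OpB6D2 and FpB6D2. The level in R1 was 8.06-fold that in NmB6D2 (difference 3.01, SE 0.12, adjusted p = 9.95e-11). Psmb8's second probe set, 1444619_x_at, averaged 2.60 to 2.91 and was not tested.

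Psmb9 (1450696_at) read 5.74, 5.75 and 5.80 in R1, 5.33, 5.68 and 5.83 in FpB6CBA, 4.93, 5.14 and 5.21 in NmB6D2, 4.43, 4.48 and 4.53 in OpB6D2, and 4.23, 4.49 and 4.56 in FpB6D2. R1 and FpB6CBA overlapped on top (adjusted p = 0.278), and OpB6D2 and FpB6D2 overlapped at the bottom (adjusted p = 0.738). FpB6CBA was 2.27-fold above FpB6D2 (difference 1.19, SE 0.12, adjusted p = 9.59e-07), whereas R1 was 1.59-fold above NmB6D2 (difference 0.67, adjusted p = 0.000193), under the fold minimum.

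The transporter subunits did not follow each other. Tap1 (1416016_at) read 6.05, 6.09 and 6.21 in FpB6CBA, 5.87, 5.97 and 6.07 in NmB6D2, 5.69, 5.74 and 5.90 in OpB6D2, 4.86, 5.16 and 5.41 in FpB6D2, and 4.96, 4.99 and 5.26 in R1. The first 3 lines overlapped in neighbouring pairs, and FpB6D2 and R1 overlapped below them (adjusted p = 0.621). R1 was 1.86-fold lower than NmB6D2 (difference -0.90, SE 0.12, adjusted p = 1.93e-05), and FpB6CBA was 1.97-fold higher than FpB6D2 (difference 0.97, SE 0.12, adjusted p = 1e-05), and no difference of Tap1 in the 5 comparisons reached the fold minimum. Between the ends of the order, R1 was lower than FpB6CBA by a difference of -1.05. Tap1 and Psmb9 share most of their promoter windows, and R1 had the highest mean of Psmb9 and the lowest of Tap1. The other 3 probe sets of Tap1 (1420274_at, 1448177_at and 1449803_x_at) lay between 2.44 and 4.16 and were not tested.

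Tap2 (1453913_a_at) read 5.83, 5.88 and 5.93 in R1 and between 4.85 and 5.32 on the other 12 arrays. R1 lay above all of them, and the other 4 lines did not differ in neighbouring pairs (adjusted p of 0.109 or more). R1 was 1.59-fold above NmB6D2 (difference 0.67, SE 0.08, adjusted p = 6.04e-06), under the fold minimum.

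Tapasin was lowest in FpB6D2 on both probe sets. Tapbp (1421812_at) read 8.69, 8.70 and 8.72 in R1, 8.16, 8.21 and 8.32 in OpB6D2, 8.13, 8.16 and 8.20 in FpB6CBA, 7.84, 7.85 and 7.91 in NmB6D2, and 7.19, 7.20 and 7.25 in FpB6D2. OpB6D2 and FpB6CBA overlapped (adjusted p = 0.305), and the other lines stood apart. The level in FpB6D2 was 2.02-fold below that in OpB6D2 (difference -1.02, SE 0.05, adjusted p = 1.22e-08), and without OpB6D2 replicate 4 the difference was -0.97, and under quantile normalisation -0.99, in each case no longer called. On 1450378_at, FpB6D2 (4.67 ± 0.21) was 2.58-fold below OpB6D2 (6.04 ± 0.18) and 2.04-fold below NmB6D2 (5.70 ± 0.13), with differences of -1.37 (adjusted p = 5.46e-07) and -1.03 (adjusted p = 2.88e-06). The difference from NmB6D2 fell under the fold minimum without FpB6D2 replicate 2 (-0.92) and also without NmB6D2 replicate 2 (-0.996) or 4 (-0.99).

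Nlrc5 (1437176_at) lay between 2.50 and 3.11 on all 15 arrays, under the filter value, and was not tested. The array therefore gives no order of the lines for this activator.

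Among the 5 comparisons set side by side here, that of the lines from follicle-grown oocytes had the most calls of these genes. In FpB6CBA against FpB6D2, 9 of the 22 probe sets were called higher, where 5.21% of all tested probe sets were, and 0 lower, where 4.83% were. The 9 are 4 of H2-D1, 2 of H2-K1, the one shared by both, the one of H2-T-ps and H2-T23, and Psmb9, and 7 of them are _x_at probe sets. One of the 4 of H2-D1, 1450170_x_at, passed the filter through FpB6CBA alone. In a fit of the probe sets that reached the filter value in 2 or more lines, an alternative chosen after seeing the data, 8 of 21 were called higher, where 5.18% of all were. The median difference of the 22, which include 1450170_x_at, was 0.94, against -7.2e-05 over all tested, and 21 of 22 were above 0. With no fold minimum 19 of 22 passed, where 54.8% of all did. The probe sets overlap in what they read, so the 22 are not independent. Both strain and derivation differ between these lines and cannot be told apart. How the probes of the heavy chain genes match the alleles of each line was not tested either. Both lines also had the highest control values. The hybridisation controls were 9.93 in FpB6CBA and 9.74 in FpB6D2. The poly-A controls were 8.94 and 8.35, against 7.88 to 8.04 in the other 3 lines. The log2 value of the actin 3' probe set minus that of the 5' one, a sign of RNA quality, was 0.70 and 0.63, against 0.51 to 0.53. The part of these values in the result was not tested.

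In R1 against NmB6D2, 3 of 22 were called higher (Psmb8 and both of B2m), where 7.6% of all tested were, and 1 lower (1452544_x_at of H2-D1), where 5.06% were. The median difference was 0.68, against -0.04 over all tested, and 20 of 22 passed with no fold minimum, where 58.9% of all did. Strain, derivation and source differ between R1 and NmB6D2 and cannot be told apart. In FpB6D2 against NmB6D2, 3 of 22 were called lower, 2 of H2-K1 and 1 of Tapbp, where 5.72% of all were, and 0 higher, where 4.44% were. The median was -0.29, against 0.00 over all tested, and 14 of 22 passed with no fold minimum, where 55.5% did. Mode of origin, oocyte growth and derivation differ between FpB6D2 and NmB6D2 and cannot be told apart.

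In FpB6D2 against OpB6D2, both probe sets of Tapbp were called lower, 2 of 22, where 2.9% of all were, and 0 were called higher, where 1.17% were. The median was -0.40, against 0.00, and 14 of 22 passed with no fold minimum, where 47.8% did. In OpB6D2 against NmB6D2, limma called 0 of 22 in either direction, where 2.96% of all were called higher and 2.46% lower. There 13 of the 22 had an unadjusted p under 0.05, and 12 passed an adjusted p with no fold minimum, where 44% of all did. The largest of these differences were -0.61 for Psmb9 and 0.55 for 1451931_x_at of H2-K1 and 1451784_x_at of H2-D1. These comparisons share lines, so they are not independent of each other. In each, the derivation differs along with the origin of the line, and these cannot be told apart.

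**Figure D3:**
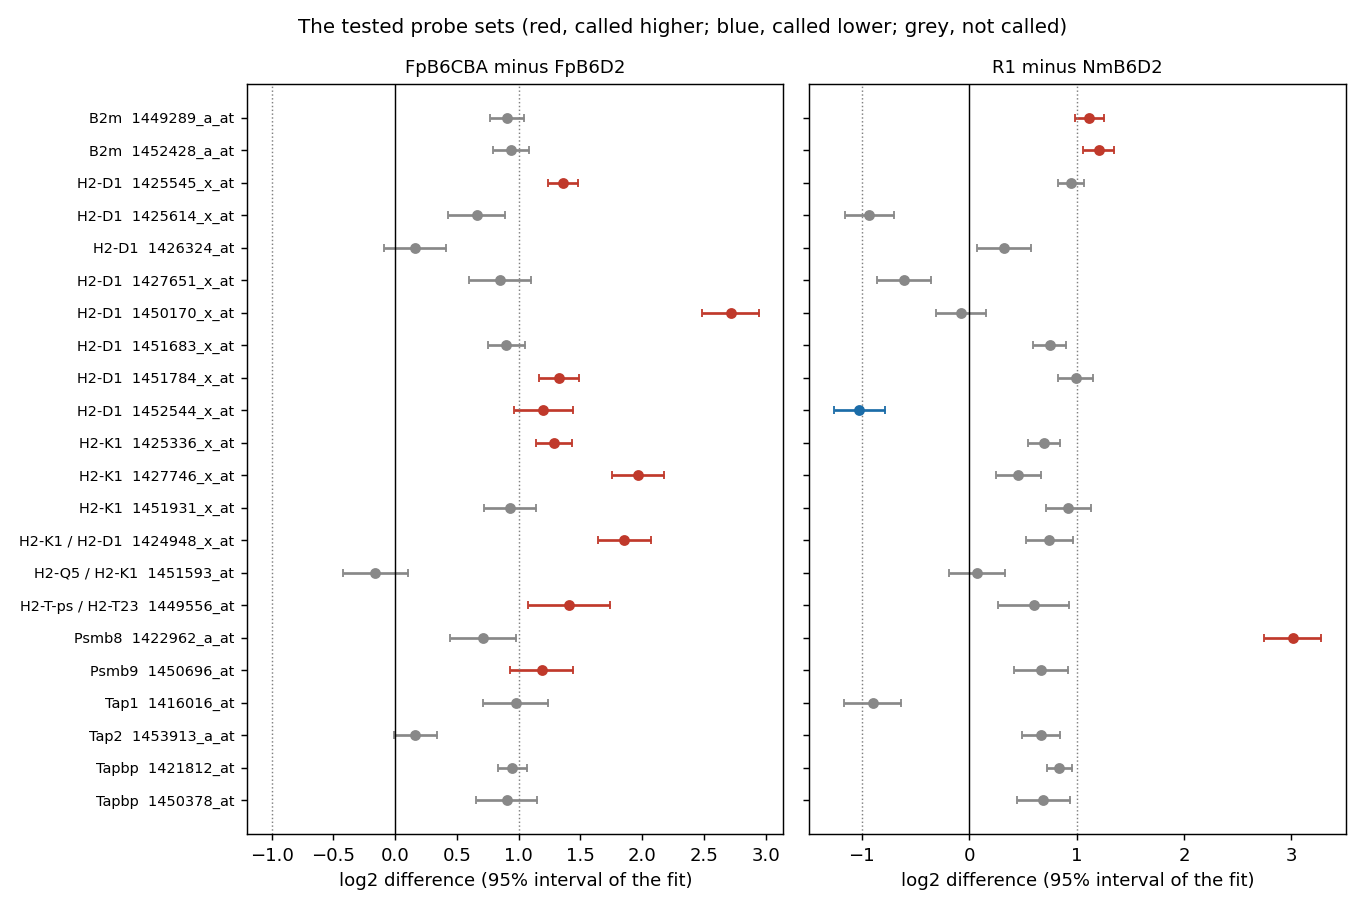
Differences of the 22 tested probe sets in log2 units with their 95% intervals, for FpB6CBA minus FpB6D2 (left) and R1 minus NmB6D2 (right), with dotted lines at the 2-fold minimum. On the left 9 are called higher and none lower, and on the right Psmb8 stands at 3.01 while 3 probe sets of H2-D1 and that of Tap1 lie between -0.61 and -1.02.

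Whether the mode of origin went with the level was read over lines, 3 parthenogenetic against 2 fertilised. In limma on the line means, 0 of the 22 and 0 of all 24524 tested probe sets were called (0%), and at an unadjusted p under 0.05 there were 0 of the 22 and 1090 of all. The largest difference was that of Psmb8, -1.70 (SE 0.90, adjusted p = 0.939), and the median of the 22 was -0.10, against 0.00 over all tested. With 5 lines, of which the fertilised R1 and the parthenogenetic FpB6CBA were the highest, this does not show that the origins are alike.

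Over the 22 tested probe sets, R1 was the highest line for 11 and FpB6CBA for 11. The latter include 1450170_x_at, which passed the filter through FpB6CBA alone. FpB6D2 was the lowest for 13, R1 for 4, NmB6D2 and OpB6D2 for 2 each, and FpB6CBA for 1. Of the 88 neighbouring pairs in these orders, 49 differed at an adjusted p under 0.05 with no fold minimum, where 30.6% of such pairs did over all tested probe sets.

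Other genes of the pathway, taken as whole lists, were read by the highest probe set of each gene. Over all 12813 genes tested in this way, 7.39% were called higher and 5.49% lower in R1 against NmB6D2, 6.03% and 5.14% in FpB6CBA against FpB6D2, 5.22% and 5.53% in FpB6D2 against NmB6D2, 1.31% and 2.44% in FpB6D2 against OpB6D2, and 3.24% and 2.6% in OpB6D2 against NmB6D2. Of 15 genes of peptide trimming and class I loading, 3 were called higher in R1 than in NmB6D2 and 0 in either direction in each of the other 4 comparisons, where 9 to 13 of them had an unadjusted p under 0.05 in limma. The 3 were Erap1, which trims peptides in the endoplasmic reticulum (3.02-fold, adjusted p = 8.76e-08), Psmb10, the third immunoproteasome subunit (2.27-fold, adjusted p = 8.89e-09), and Lap3, a cytosolic aminopeptidase (2.01-fold, adjusted p = 1.46e-09). Of 14 constitutive proteasome subunits, limma called 0 in R1 against NmB6D2, where 11 had an unadjusted p under 0.05, and 1 in any of the 5 comparisons, Psmb2, which was 2.12-fold lower in FpB6D2 than in OpB6D2 (adjusted p = 2.97e-08).

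Of 6 other class I-like heavy chains tested, H2-Bl was at least 6.23-fold higher in FpB6CBA than in FpB6D2 (6.50 against 3.82, the latter under the filter value, adjusted p = 4.65e-10). Fcgrt, the neonatal Fc receptor, was 2.10-fold higher in FpB6D2 than in NmB6D2 (adjusted p = 2.48e-05). Of 10 genes of the factors that act on class I promoters, 3 were lower in FpB6D2 than in NmB6D2: Rfx5 (2.36-fold), Nfyb (2.26-fold) and Creb1 (2.19-fold), with adjusted p of 4.45e-07 or less. In FpB6CBA against FpB6D2, Nfyb was 2.10-fold higher and Nfyc 2.58-fold lower, and in R1 against NmB6D2 Irf1, an interferon-induced activator of these genes, was 2.07-fold higher (adjusted p = 8.66e-09).

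Some interferon-stimulated genes were called higher in R1 than in NmB6D2, as Psmb8 was, while Tap1 was lower there, under the fold minimum. The list of interferon-stimulated genes, like the others, was chosen with earlier results of these data known, so its counts are a description. Of 22 tested, 10 were called higher and 0 lower in R1 against NmB6D2, with a median difference of 0.85 against -0.04 over all genes. The largest were Usp18, which removes the ubiquitin-like Isg15 (at least 23.7-fold), Xaf1 (23.8-fold), the interferon-induced GTPase Irgm1 (19.8-fold) and the membrane protein Ifitm1 (13.5-fold). Of 11 genes of interferon signalling, Jak2 alone was called in that comparison, 3.48-fold higher (adjusted p = 8.66e-10). In the other 4 comparisons at most 3 of the 22 were called. In FpB6D2 against NmB6D2, where 2 of the 3 tested probe sets of H2-K1 were called lower, 2 of the 22 were called higher and 1 lower. Their median difference there was 0.04, against 0.02 over all genes. Xaf1, called higher, was 9.39-fold higher in FpB6D2 than in NmB6D2 (adjusted p = 8.55e-12). Ifit1, Ifit2, Ifih1, Iigp1, Mx1 and Mx2 were under the filter value on all 15 arrays. The part of interferon signalling in the class I values was not tested.

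Markers of other cells also differed between these lines, not always in the direction of the class I genes. In R1, 13 of 22 fibroblast markers were called higher than in NmB6D2 and 0 lower, among them Col5a1 (6.60-fold) and Col3a1 (6.28-fold). Their summed linear value, over 23 genes, was 13628 to 13941 on the R1 arrays, 6147 to 6762 in NmB6D2, 9105 to 11550 in OpB6D2, 7768 to 8220 in FpB6D2 and 8437 to 10310 in FpB6CBA. OpB6D2 and FpB6CBA overlapped below R1, and FpB6D2, lowest on most class I probe sets, lay above NmB6D2. Of the 22 fibroblast markers, 2 were called higher and 2 lower in FpB6CBA against FpB6D2, with a median difference of 0.04. In FpB6D2 against NmB6D2, 6 were called higher and 0 lower. In FpB6CBA against FpB6D2, 9 of 10 primitive endoderm markers were called higher and 1 lower, with Dab2 at 7.09-fold, Lama1 at 6.18-fold and Col4a1 at 4.76-fold. Summed over 11 genes they were 4702 to 5700 in FpB6CBA and 1317 to 1918 in the other 4 lines, and in R1 against NmB6D2 5 of the 10 were called higher and 1 lower. Of the 11 ES cell markers, 0 were called higher and 1 lower in FpB6CBA against FpB6D2, Nanog (3.01-fold lower). In R1 against NmB6D2, 1 ES cell marker was called higher and 2 lower. Of 11 trophectoderm markers, 4 were called higher and 2 lower in FpB6CBA against FpB6D2, and 1 and 3 in R1 against NmB6D2. In FpB6D2 against NmB6D2, where 3 class I probe sets were called lower, 6 of the 11 were called lower and 1 higher (median difference -1.76). In OpB6D2 against NmB6D2, where no class I probe set was called, 6 were called lower and 0 higher (median -2.01). In FpB6D2 against OpB6D2, 5 were called higher and 0 lower. Their summed value was 6508 to 7062 in NmB6D2, 6318 to 6990 in R1, 5381 to 6378 in FpB6CBA, 1932 to 2034 in FpB6D2 and 1060 to 1211 in OpB6D2. The part of these markers in the class I values was not tested.

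Of 7 leukocyte markers tested, 1 was called higher in FpB6CBA than in FpB6D2, Lyz2, and 0 higher and 1 lower in R1 than in NmB6D2. The summed value over 10 leukocyte genes was 924 to 964 in R1, 617 to 652 in NmB6D2, 818 to 957 in FpB6CBA, 938 to 1033 in OpB6D2 and 1122 to 1361 in FpB6D2, a sum in which Laptm5 is the highest gene in every line. The mean log2 value of the same 10 genes was 5.06 in FpB6CBA and 4.73 to 4.79 in the other 4 lines. Of the 7 tested, 6 passed an adjusted p with no fold minimum in FpB6CBA against FpB6D2, with a median difference of 0.70. The part of these markers in the class I values was not tested. The pan-leukocyte gene Ptprc, with Cd52 and Tyrobp, was under the filter value on all 15 arrays. Of 5 MHC class II genes tested, limma called 0 in R1 against NmB6D2 and 0 in FpB6CBA against FpB6D2, where 2 and 3 had an unadjusted p under 0.05, and H2-Aa and H2-Ob were under the filter value on all arrays. Of 5 endothelial markers, 3 were called higher in R1 than in NmB6D2 and 2 in FpB6CBA than in FpB6D2, while Cdh5, Tie1 and Emcn were under the filter value throughout.

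**Figure D4:**
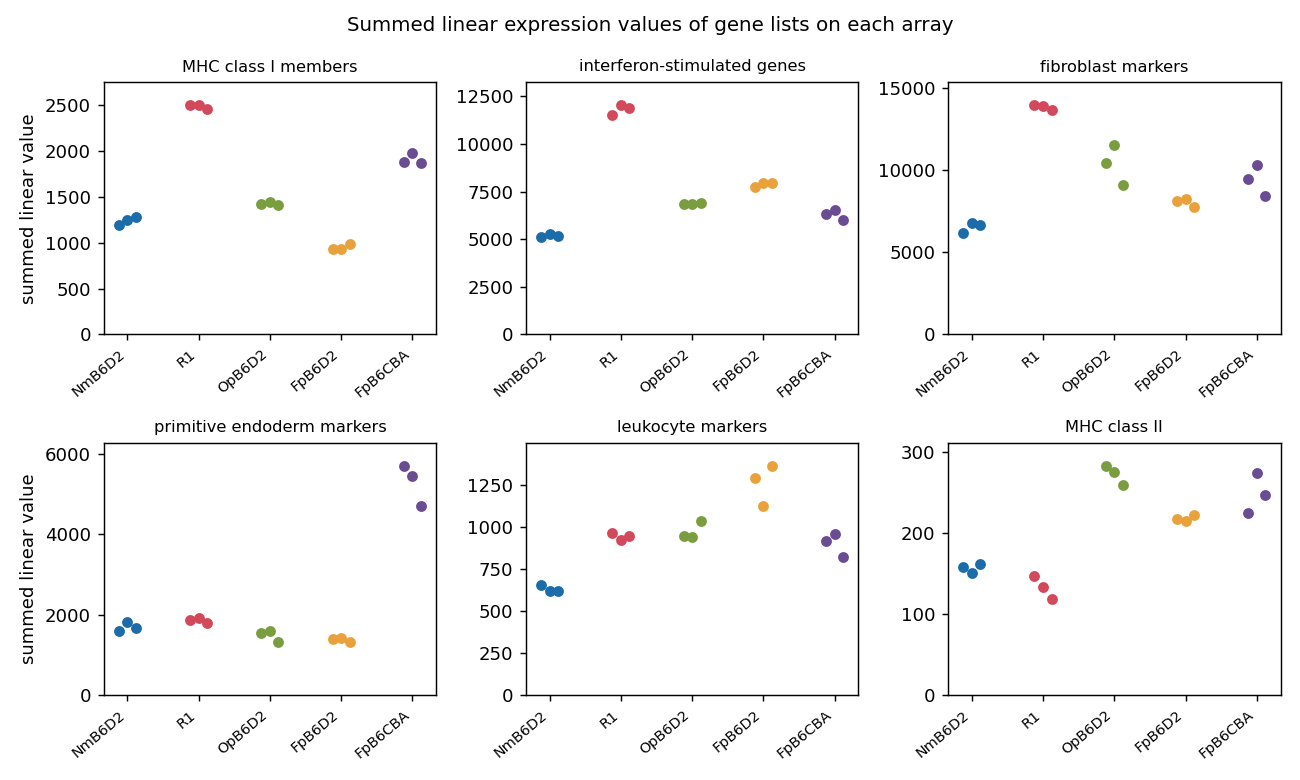
Summed linear expression value on each of the 15 arrays for the 9 class I genes with their own probe set and for 5 other gene lists, by line (1 probe set per gene, each panel on its own scale from 0). The class I sum was 2451 to 2495 in R1, 1865 to 1973 in FpB6CBA, 1406 to 1446 in OpB6D2, 1189 to 1283 in NmB6D2 and 929 to 989 in FpB6D2, the fibroblast sum was highest in R1 and the primitive endoderm sum in FpB6CBA. B2m is the highest gene of the class I sum in every line, so this sum does not stand for each gene.

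The genes whose levels followed a class I gene most closely were taken by Pearson's r over the 15 arrays among 12812 other genes. The 15 arrays are 5 lines of 3, so r mainly compares line means, and it is given as a description. For B2m they were Hopx (r = 0.975, Spearman's rho 0.885), Fam102a (0.970, 0.946), Itm2c (0.970, 0.979), Tdrkh (0.961, 0.860) and Vkorc1 (0.960, 0.928). For H2-K1 they were Fgd5 (0.976, 0.968), P4hb (0.975, 0.975), Acsl3 (0.968, 0.954), Glul (0.961, 0.946) and Asxl1 (0.957, 0.936). For Tap1 they were Rnf17 (0.956, 0.946), Zfp991 (0.947, 0.911), Mfsd3 (0.946, 0.957), Mtln (0.943, 0.929) and Mmp11 (0.943, 0.832), each lowest in R1. For Psmb8 they were Slc39a8 (0.991, 0.929), Irgm2 (0.990, 0.904), Tor1aip2 (0.984, 0.814), S100a10 (0.984, 0.807) and Nrp2 (0.984, 0.811), each highest in R1. In the other 4 lines Slc39a8 averaged 2.77 to 3.65 and Irgm2 2.94 to 3.31, under the filter value. These 2 genes passed the filter mainly through R1, so their place there was largely fixed in advance. None of the 4 sets holds another of the 10 class I genes. Ranked by rho, or by r on the 5 line means, between 0 and 2 of each 5 were named again, so these names depend on the measure. By r on the line means, Tap2 was among the 5 of Psmb8. Between the class I genes themselves, r was 0.971 for Psmb8 with Tap2, 0.747 for Psmb8 with Psmb9, and -0.0968 for Tap1 with B2m. For B2m (1449289_a_at) it was 0.787 to 0.924 with the tested probe sets of H2-K1. With those of H2-D1 it ran from -0.283 (1425614_x_at) to 0.943 (1451683_x_at).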

How the data were processed

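Total RNA of the 15 samples was hybridised to 1-colour Affymetrix arrays. The authors deposited 1 log2 value per probe set and array, and the submitters' processing notes name affy and RMA, with versions and settings not given in the sources used here. Base 2 was inferred from their range, 1.99 to 13.96. No further normalisation was applied. Genes came from the platform annotation, in which 34945 probe sets carry 1 symbol, 932 several, 9160 none and 64 are controls. Contrasts of 5 lines were fitted in 1 limma model (limma 3.58.1, R 4.3.3) and the mode of origin on 5 line means, with Benjamini-Hochberg adjustment over the 24524 probe sets tested, and the fit was tested on simulated data. The number of arrays limits the precision. All probe sets of the 10 genes are named. Of each list up to 4 called genes per comparison are named, by size, and for 4 class I genes the 5 likest. The members and lists were chosen with earlier results of these data known. RefSeq promoters are of GRCm38.p6. Alternatives were other filters, ways of choosing probe sets, scalings, variance models, thresholds, a replicate block and leaving out each array or line. Plots were drawn with matplotlib 3.10.9.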

Additional observations from a re-analysis of the deposited data

How the results depend on the processing

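An alternative counted for a probe set only where it tested that probe set. Stricter filters and choices of probe sets left some out. With the stricter filter, 6 of 13 class I probe sets were called higher in FpB6CBA against FpB6D2. Of the 18 called differences of class I probe sets, 14 kept the call in every refit of their probe set. Among the 14 is that of 1450170_x_at, which passed the filter through FpB6CBA alone. Of the 494 refits of the 18, 483 kept the call and none changed sign. The other 4 are named with their values above, and lay at the fold minimum: H2-K1 1425336_x_at and Tapbp 1421812_at also lost the call under quantile normalisation (-0.96 and -0.99). Leaving out 1 array gave 9 to 11 calls in FpB6CBA against FpB6D2, 2 to 4 in FpB6D2 against NmB6D2, 3 to 6 in R1 against NmB6D2, 0 in OpB6D2 against NmB6D2, and 1 (without OpB6D2 replicate 4) to 2 in FpB6D2 against OpB6D2, where quantile normalisation also gave 1. In the order OpB6D2 against NmB6D2, FpB6D2 against NmB6D2, FpB6D2 against OpB6D2, FpB6CBA against FpB6D2 and R1 against NmB6D2, all tested features called numbered 1329, 2492, 997, 2461 and 3105 as reported. With 1 probe set per gene they were 748, 1377, 480, 1430 and 1651, with the mean of a gene's probe sets 554, 964, 299, 998 and 1182, and with no fold minimum 10796, 13600, 11723, 13449 and 14452. Class I calls with no fold minimum were 12, 14, 14, 19 and 20. With 1 probe set per gene they were 1, 1, 3 and 2 in the last 4 comparisons, with the mean 0, 1, 3 and 2, fewer probe sets being tested. Without probe sets ending in _x_at, _s_at or _a_at, which leaves 7, they were 1 in FpB6D2 against NmB6D2, 2 in FpB6CBA against FpB6D2 and 0 in R1 against NmB6D2, since B2m and Psmb8 have no other probe set above the filter. For the mode of origin, 3 probe sets were called with a stricter filter, 3 without those endings and 73 without the line NmB6D2, for which the cause was not tested, none of them a class I probe set. Neighbouring pairs that differ were 19 with 1 probe set per gene and 11 without those endings. Titles number 13 arrays, and the numbers did not pair the samples: deviations of 12 same-numbered pairs correlated at -0.191 to 0.116, with 1 over 0.1. A replicate block on these 13 arrays gave 0, 3, 2, 10 and 5 class I calls. The RMA values carry no detection call, so levels near the filter value have no known background.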
